A study of Mus musculus with 15 samples.

Results

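The antioxidant enzymes described here are 10 genes, namely Sod1, Sod2, Cat, Gpx1, Gpx4, Prdx1, Prdx2, Prdx3, Prdx5 and Prdx6. They were chosen by symbol from the 24454 rows of a table of gene counts, each row being the count of sequencing reads for 1 gene, and all 10 were found. Total RNA of mouse midbrain was sequenced in 15 libraries, in 5 groups of 3: transgenic mice (TG) given 2 mg of carnosine through the nose (TG intranasal), TG that drank water with 10 mM carnosine (TG drinking water), TG without carnosine (TG control), wild-type BDF1 mice (WT) given 2 mg of carnosine through the nose (WT intranasal) and WT without carnosine (WT control). All 3 TG groups carry a transgene driven by the Thy1 promoter, which the WT groups lack, and treatment began at 2 months of age and went on for 2 months. Carnosine is a dipeptide of beta-alanine and histidine that can bind metals and reactive aldehydes. The labels give neither what the controls received nor how often carnosine was given, and they do not say whether mice were pooled, so the p-values below measure the spread between these libraries.

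Cells that respire leak electrons onto oxygen, and the superoxide that forms is turned into hydrogen peroxide by superoxide dismutases. The peroxide is then broken down by catalase, by glutathione peroxidases, which draw on glutathione, and by peroxiredoxins, most of which draw on thioredoxin. In the brain these enzymes are found in neurons and glia alike, in the cytosol, the mitochondria and the peroxisomes, and dopamine neurons of the midbrain are known for a high oxidant load because dopamine itself is oxidised. Several of the genes are textbook targets of the transcription factor Nrf2, which binds the antioxidant response element, whose core is TGACNNNGC.

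Promoter sequence shows how far these 10 genes share short motifs. The window of 250 bases before each RefSeq start was searched on both strands for TGACNNNGC and for GGGCGG, the core of the GC box that Sp1 binds. TGACNNNGC was present for 2 of the 10 genes, Prdx1 and Sod1, and in 10.161% of all 32851 windows. GGGCGG was present for 7 of the 10, namely Sod1, Sod2, Cat, Gpx4, Prdx1, Prdx3 and Prdx5, and in 32.742% of all windows. A window counts once however many matches it holds, and matches of GGGCGG may share bases. A gene counts if any of its windows matches, and Gpx4 has more than 1 window. The 2 percentages are shares of single windows, so they are not on the same footing as the counts of genes. Below are the windows of the pair with TGACNNNGC, in which capitals mark that motif, and those of Gpx4, the gene that varied most between libraries, and Sod2, the gene that varied least, in which capitals mark GGGCGG. All are from RefSeq on GRCm38.p6, plus strand, 5′ to 3′, shortened to the bases before the first annotated exon of the same gene within the window: chr4:116685349-116685543 for Prdx1, chr16:90220512-90220753 for Sod1, chr10:80053315-80053487 for Gpx4 and chr17:13007589-13007816 for Sod2.
Prdx1: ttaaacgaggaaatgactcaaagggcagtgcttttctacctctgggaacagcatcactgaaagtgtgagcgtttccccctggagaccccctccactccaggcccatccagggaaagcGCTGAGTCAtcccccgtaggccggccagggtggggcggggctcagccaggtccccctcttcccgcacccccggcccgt
Sod1: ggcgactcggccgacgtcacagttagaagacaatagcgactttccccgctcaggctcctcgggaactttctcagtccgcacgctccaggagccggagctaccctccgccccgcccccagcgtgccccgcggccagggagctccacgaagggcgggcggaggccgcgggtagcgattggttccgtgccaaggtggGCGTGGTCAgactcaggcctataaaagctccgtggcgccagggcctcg
Gpx4: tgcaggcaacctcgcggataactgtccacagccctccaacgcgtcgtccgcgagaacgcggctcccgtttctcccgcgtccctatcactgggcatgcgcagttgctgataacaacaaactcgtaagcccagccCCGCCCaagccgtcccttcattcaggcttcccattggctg
Sod2: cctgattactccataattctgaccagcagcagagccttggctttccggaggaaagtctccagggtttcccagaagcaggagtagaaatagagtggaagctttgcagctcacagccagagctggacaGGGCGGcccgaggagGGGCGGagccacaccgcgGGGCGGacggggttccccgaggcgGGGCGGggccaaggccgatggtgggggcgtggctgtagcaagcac
In Prdx1 and in Sod1 the match is on the minus strand. The printed windows of both Sod2 and Gpx4 hold GGGCGG, with 4 matches in Sod2 and 1 in Gpx4, the least and the most variable gene of the 10. Gpx4 has more than 1 RefSeq start, and the window printed for it lies inside the annotated gene. Before shortening, that window holds 2 matches. The window of its first start, chr10:80046916-80047165, holds none.

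Library totals ran from 23055862 to 34843691 counts in TG intranasal, 16256593 to 23919657 in TG drinking water, 14078637 to 17347311 in TG control, 25676560 to 60542423 in WT intranasal and 13202199 to 17759834 in WT control. All 10 genes passed the filter on low counts, which left 15818 genes, and their lowest count in any library was 651, for Cat. An unnamed row held 2.314% to 6.216% of the counts in 8 libraries (all 6 WT, TG control 1 and TG control 2) and 0.1221% to 0.3204% in the other 7, so the TG carnosine libraries stand on one side of this split and TG control on both. Gh, a pituitary hormone gene, stood at 557 CPM in TG control 1 and at 718 CPM in WT control 1, and Gabra6, a cerebellar granule cell gene, at 12.6 CPM in TG drinking water 3, 14.4 CPM in WT intranasal 2 and 18.6 CPM in WT intranasal 3, against at most 2.46 CPM in the others. Of the dopamine neuron markers, Pitx3 was below 1 CPM in every library, and of 6 red blood cell markers the 4 hemoglobin rows were at 0 throughout.

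Levels are given as CPM, in which each count is divided by its scaled library total, and between genes only as CPM per kb of transcript. On that per-length scale Gpx4, the selenium enzyme that reduces lipid peroxides within membranes, had the highest level, 777 ± 327 CPM per kb (SD, n = 15 libraries). Sod1, the copper and zinc dismutase of the cytosol, followed with 440 ± 97.2, then Prdx6, which uses glutathione and also has a phospholipase activity, with 243 ± 35.3 CPM per kb. Prdx2, the abundant cytosolic peroxiredoxin of neurons, averaged 201 ± 42.0 CPM per kb, and Prdx5, found in mitochondria, peroxisomes and cytosol, 163 ± 39.7. Gpx1, the main cytosolic glutathione peroxidase, and Prdx1, a cytosolic peroxiredoxin, could not be ordered at 136 ± 43.0 and 135 ± 27.1 CPM per kb, with Gpx1 the higher in 5 of 15 libraries. The lowest levels were those of Prdx3, the mitochondrial peroxiredoxin, with 53.3 ± 12, of Cat, the catalase of peroxisomes, with 30.3 ± 3.96, and of Sod2, the manganese dismutase of mitochondria, with 25 ± 1.43 CPM per kb. Each other gene lay above the next in the order in 13 to 15 of the 15 libraries, so the order of most of them held within libraries although the SDs of neighbours overlap. These levels depend on the transcript length taken for each gene, the longest in the annotation, which is 5861 bases for Sod2 and 641 for Sod1.

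The 10 genes differed widely in how constant they were. Sod2 varied by a factor of 1.22 between its lowest and its highest library, Prdx6 by 1.59 and Cat by 1.73, while Gpx4 varied by 4.03, Gpx1 by 2.98 and Prdx5 by 2.64. TG control 2 was the lowest library for 7 of the 10 genes (Sod1, Gpx1, Gpx4, Prdx1, Prdx2, Prdx3 and Prdx5). WT control 1 was the highest for Gpx1, Gpx4, Prdx2, Prdx3 and Prdx5 and the lowest for Cat. The rest of this account follows the groups, and in bulk tissue fewer cells of a type and less RNA per cell cannot be told apart.

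**Figure D1:**
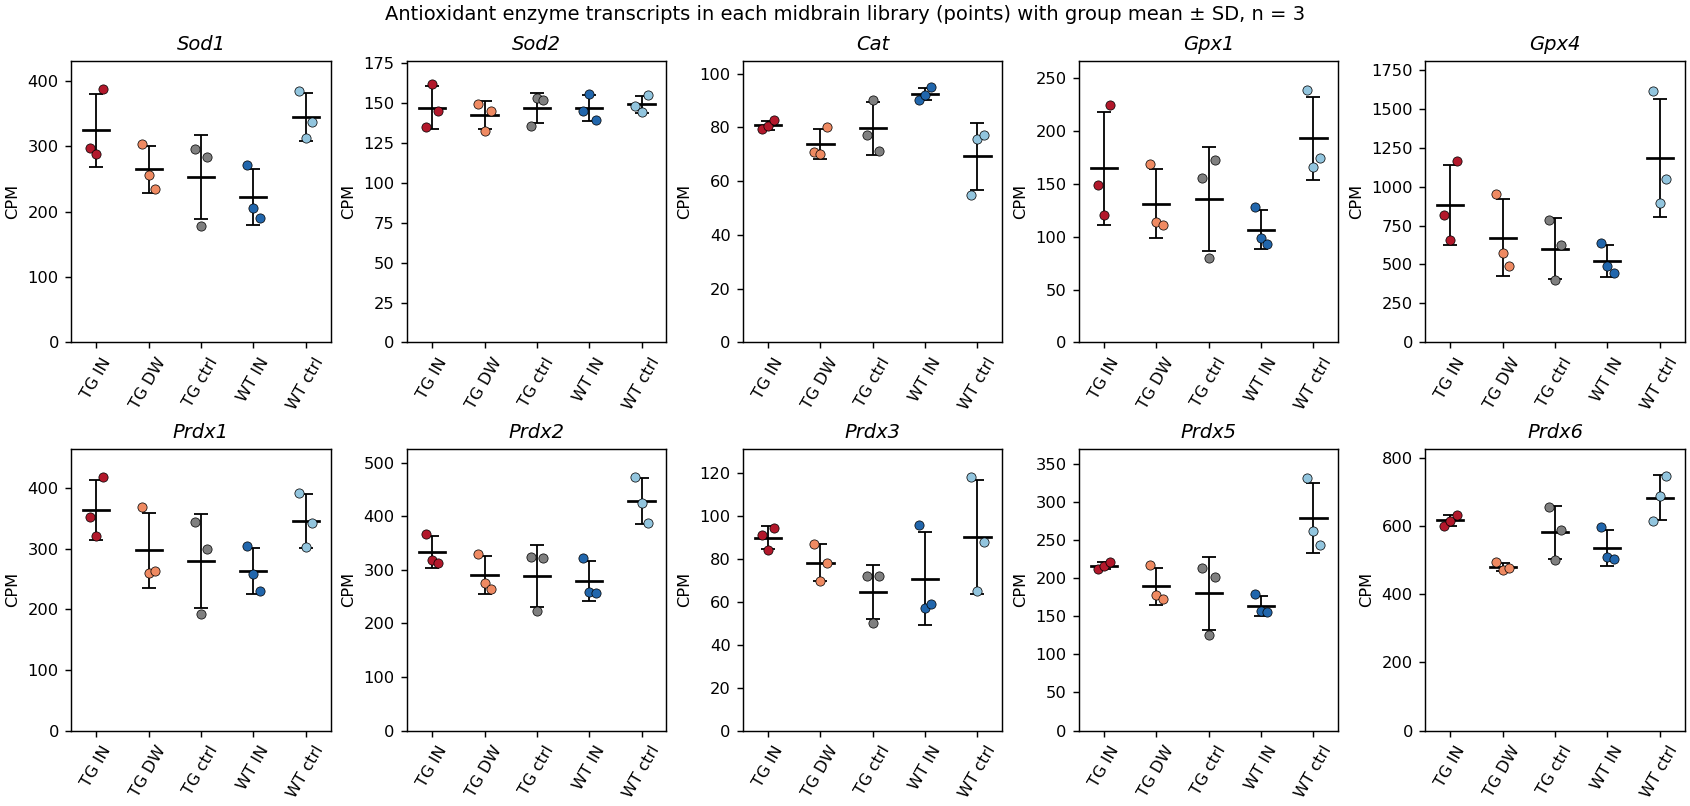
CPM of each of the 10 antioxidant enzyme genes (vertical axes, starting at 0) in the 15 libraries (points) by group, with the mean and SD of 3 libraries; TG IN, TG intranasal; TG DW, TG drinking water; TG ctrl, TG control; WT IN, WT intranasal; WT ctrl, WT control. Gpx4 averages 1184 CPM in WT control, its highest group, while Sod2 averages 143 to 149 CPM in every group.

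How the 10 genes stand in the transgenic midbrain without carnosine is shown by TG control against WT control. Most antioxidant enzyme genes were lower in TG control: 9 of 10 had a negative log2 fold change, with a median of -0.46, against a median of 0.021 over all 15818 genes, of which 48.0% were lower. None passed the test (edgeR's quasi-likelihood F-test, Benjamini-Hochberg adjustment over all genes, adjusted p under 0.05, used for every adjusted p below), and of all genes 0.0126% did. At an unadjusted p under 0.05 there were 5 of the 10 genes, against 18.1% of all genes, and DESeq2 called 3 of the 10, namely Gpx4, Prdx2 and Prdx5, against 3.33% of the genes it tested. Most of the 10 genes have short transcripts, and short genes as a whole were lower here too. Over all genes the median was -0.60 up to 1000 bases and -0.24 over 1000 and up to 2500. Length is taken up below.

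As counted, the superoxide dismutases Sod1 and Sod2 had log2 fold changes of unlike size, a difference between genes that was not tested. Sod1 had 296, 179 and 284 CPM in TG control and 384, 312 and 337 CPM in WT control. The groups did not overlap, with TG control 2 far below the other TG control libraries, and the log2 fold change was -0.45 (SE 0.20, adjusted p = 0.259). Sod2 had 136, 153 and 152 CPM in TG control and 148, 145 and 155 CPM in WT control, and here the groups overlapped, with a log2 fold change of -0.02 (SE 0.12). After the correction for transcript length and GC content given below, Sod1 was at 0.11 and Sod2 at -0.34.

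Among the peroxide-removing enzymes Gpx4 showed the lowest log2 fold change. It had 784, 399 and 625 CPM in TG control, against 1610, 892 and 1049 CPM in WT control, with WT control 1 standing well above the rest. Its log2 fold change was -0.97 (SE 0.30, adjusted p = 0.160). Gpx1, with 156, 79.8 and 172 CPM in TG control and 238, 166 and 174 CPM in WT control, overlapped between the groups and had a log2 fold change of -0.50 (SE 0.28). Catalase was the exception in direction: Cat had 77.1, 90.3 and 71.4 CPM in TG control and 54.8, 75.7 and 77.1 CPM in WT control, overlapping, with a log2 fold change of 0.20 (SE 0.14).

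Of the peroxiredoxins, Prdx2 had 324, 222 and 322 CPM in TG control and 474, 425 and 388 CPM in WT control. Prdx5 had 214, 126 and 202 CPM in TG control, against 332, 262 and 244 CPM in WT control. Neither overlapped between the groups, and their log2 fold changes were -0.57 (SE 0.17, adjusted p = 0.15) for Prdx2 and -0.63 (SE 0.18, adjusted p = 0.148) for Prdx5. Prdx1, Prdx3 and Prdx6 overlapped, with log2 fold changes of -0.31, -0.48 and -0.23. In all, 4 of the 10 genes lay lower in TG control without overlap (Sod1, Gpx4, Prdx2 and Prdx5), against 9.07% of all genes. Prdx5 shares 409 bases with Trmt112 in the annotation, and whether the counting used strand is not given in the sources used here, so its reads and those of Trmt112 may not be told apart. The size of the group difference rests in part on TG control 2, without which the median was -0.24. In a fit of only TG control 1 and 2 and the WT control libraries, which share a side of the split, the median was -0.55. There too none of the 10 genes passed.

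**Figure D2:**
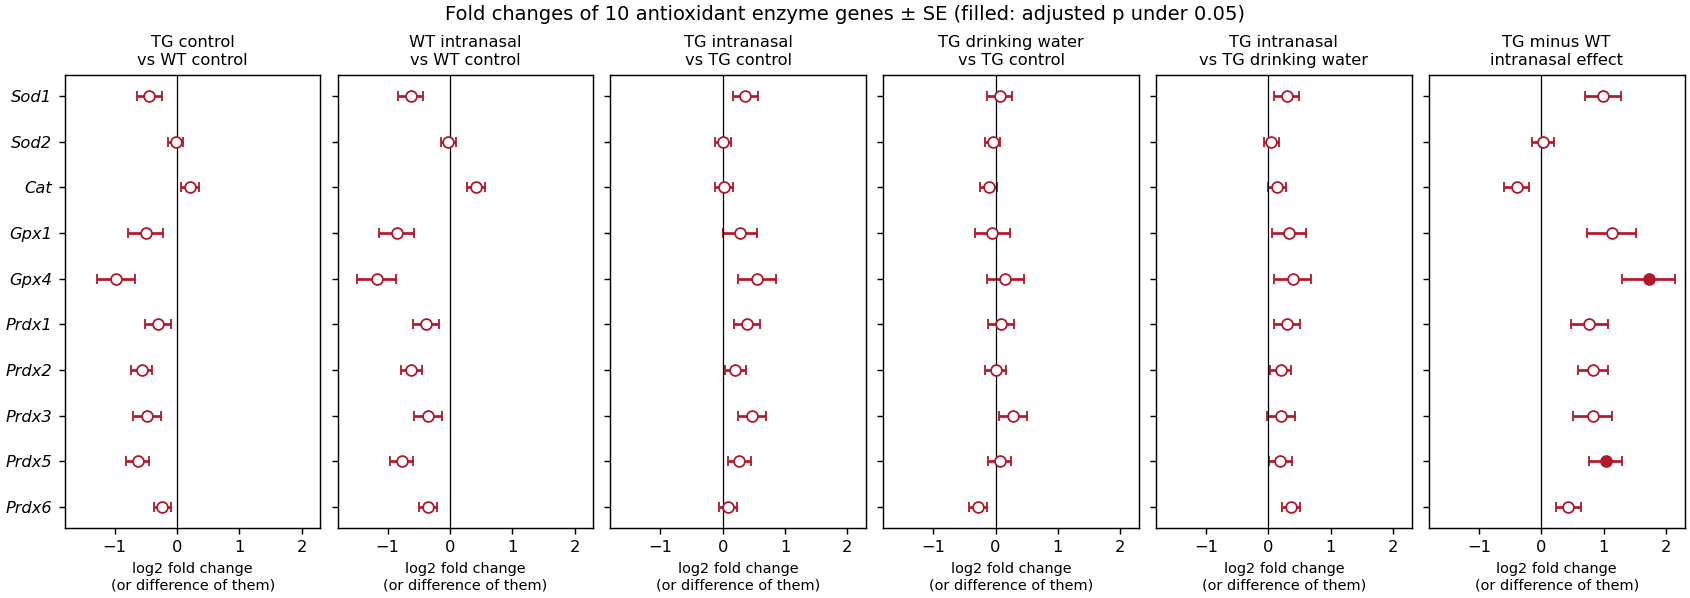
Log2 fold change of each of the 10 genes (points, with SE) in the 5 comparisons, and in the last panel the TG effect of intranasal carnosine minus the WT effect; filled points have an adjusted p under 0.05. Only Gpx4 and Prdx5 in the last panel are filled, at 1.73 and 1.03.

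What nasal carnosine goes with in mice that lack the transgene is shown by WT intranasal against WT control. The pattern was again one of lower levels: 9 of 10 genes had a negative log2 fold change, with a median of -0.51 against 0.024 over all genes, of which 47.8% were lower. None passed, against 1.01% of all genes. At an unadjusted p under 0.05 there were 7 of the 10, against 24.0% of all genes, and DESeq2 called 5 (Sod1, Gpx1, Gpx4, Prdx2 and Prdx5), against 10.6% of the genes it tested. This comparison shares the WT control libraries with the one above, so the 2 sets of values are not independent. By length, the median over all genes was -0.73 up to 1000 bases and -0.26 over 1000 and up to 2500.

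Sod1 had 271, 206 and 191 CPM in WT intranasal, below all WT control libraries, which are given above, and its log2 fold change was -0.63 (SE 0.20, adjusted p = 0.0902). Sod2 again showed little difference, with 145, 156 and 140 CPM in WT intranasal and a log2 fold change of -0.02 (SE 0.12). Gpx4 had 637, 489 and 445 CPM in WT intranasal, all below the lowest WT control library, for a log2 fold change of -1.18 (SE 0.30, adjusted p = 0.0608). Gpx1 likewise did not overlap, with 128, 99.1 and 92.7 CPM in WT intranasal and a log2 fold change of -0.86 (SE 0.28, adjusted p = 0.0933). Cat again went the other way: it had 90.3, 91.9 and 94.9 CPM in WT intranasal, above every WT control library, and a log2 fold change of 0.42 (SE 0.14, adjusted p = 0.107).

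Prdx5 came nearest to the threshold, with 179, 157 and 156 CPM in WT intranasal and a log2 fold change of -0.77 (SE 0.18, adjusted p = 0.0530). Prdx2 had 322, 259 and 257 CPM in WT intranasal, without overlap, and a log2 fold change of -0.62 (SE 0.17, adjusted p = 0.0643). Prdx6 had 597, 510 and 503 CPM in WT intranasal and 615, 689 and 748 CPM in WT control, without overlap, for a log2 fold change of -0.35 (SE 0.14). Prdx1 and Prdx3 overlapped between the groups, at -0.39 (SE 0.21) and -0.35 (SE 0.22). Thus 6 genes lay lower without overlap and 1, Cat, lay higher, against 13.4% and 13.2% of all genes. Of 6 meningeal fibroblast markers 3 passed in this comparison, all higher, against 1.01% of all genes. Their summed levels were 242 to 392 CPM in WT intranasal and 136 to 185 CPM in WT control. No marker of another list passed. Median log2 fold changes were 3.34 for cerebellum, 1.29 for red blood cell, 0.75 for endothelial and 0.53 for dopamine neuron markers. They were 0.40 for astrocyte and for choroid plexus, 0.34 for microglia, -0.033 for neuron, -0.27 for oligodendrocyte and -3.65 for pituitary markers. The part of these tissues in the values of the 10 genes was not tested. Leaving out 1 of 4 libraries gave calls in this comparison: 5 genes without TG control 2, 4 without WT intranasal 1, 2 without TG control 1 and 1 without WT control 3. Of all genes tested, these fits called 7.98%, 5.98%, 2.15% and 2.14% in the same order. Prdx5 was called in each of these 4 fits, with adjusted p-values over all 15 such fits of 0.0154 to 0.283. TG control 1 and 2 are in neither group and enter only through the filter, scaling and spread shared by all libraries. Without TG control 2 the median stayed at -0.51, as with every library.

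In TG, where intranasal carnosine is set against no carnosine, the values pointed up but were small beside their errors. All 10 genes had a positive log2 fold change, with a median of 0.27 against -0.0031 over all genes, of which 49.6% were higher. None passed, and of all genes 0.00632% did; none reached an unadjusted p under 0.05, against 9.74% of all genes, and DESeq2 called none. The highest was that of Gpx4, with 820, 659 and 1165 CPM in TG intranasal against 784, 399 and 625 CPM in TG control, which overlap, and a log2 fold change of 0.55 (SE 0.30, adjusted p = 0.529). Prdx3 was the only gene of the 10 whose groups did not overlap: it had 91.2, 83.9 and 94.2 CPM in TG intranasal and 71.9, 50.2 and 71.9 CPM in TG control, for a log2 fold change of 0.47 (SE 0.22, adjusted p = 0.510), and 5.95% of all genes lay higher without overlap. Sod1 had 297, 288 and 388 CPM in TG intranasal, Prdx1 had 352, 321 and 419 and Prdx5 had 212, 216 and 222 CPM there. Their log2 fold changes were 0.36 (SE 0.20), 0.38 (SE 0.21) and 0.26 (SE 0.18). The remaining values were 0.28 for Gpx1, 0.20 for Prdx2, 0.086 for Prdx6, 0.021 for Cat and 0.0025 for Sod2. Without TG control 2 the median of the 10 genes was 0.089, and against TG control 3, the TG control library on the same side of the split as the TG intranasal libraries, it was 0.13. By length, the median over all genes was 0.39 up to 1000 bases and 0.16 over 1000 and up to 2500.

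In TG given carnosine in the drinking water, the 10 genes lay close to TG control. Of them 6 were higher and 4 lower, with a median log2 fold change of 0.034 against 0.0050 over all genes, of which 50.7% were higher. None passed, against 0.00632% of all genes; none reached an unadjusted p under 0.05, against 8.07% of all genes, and DESeq2 called none. Prdx6 was the lowest, with 495, 470 and 476 CPM in TG drinking water and 655, 500 and 590 CPM in TG control, which did not overlap, and a log2 fold change of -0.28 (SE 0.14, adjusted p = 0.667), and 8.22% of all genes lay lower without overlap. Prdx3 was the highest at 0.27 (SE 0.22), with 87.0, 69.9 and 77.9 CPM in TG drinking water, which overlap TG control. Gpx4 had 955, 572 and 492 CPM in TG drinking water, the first library far above the others, and a log2 fold change of 0.16 (SE 0.30). The other 7 genes lay between -0.11, for Cat, and 0.091, for Prdx1, each within its SE of 0. Without TG control 2 the median was -0.12 and without TG drinking water 1 it was -0.090, while it was 0.14 without TG control 1, 0.16 without TG control 3, 0.064 without TG drinking water 2 and 0.11 without TG drinking water 3. Against TG control 3, on the same side of the split, it was -0.082.

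The routes can be set against each other in TG only, where both were given, at amounts that cannot be matched (2 mg through the nose, 10 mM in water). All 10 genes were higher in TG intranasal than in TG drinking water, with a median log2 fold change of 0.25 against 0.015 over all genes, of which 52.1% were higher. None passed, against 0% of all genes, and DESeq2 called none. At an unadjusted p under 0.05 there was 1 of the 10, Prdx6, against 7.26% of all genes. It had 602, 616 and 634 CPM in TG intranasal and 495, 470 and 476 CPM in TG drinking water, tight groups that did not overlap, and a log2 fold change of 0.36 (SE 0.14, adjusted p = 0.644); of all genes 7.63% lay higher without overlap. The highest value was that of Gpx4 at 0.39 (SE 0.30), and the lowest that of Sod2 at 0.047 (SE 0.12). Without TG intranasal 3, the highest library of its group for 8 of the 10 genes (all but Sod2 and Prdx2), the median was 0.15. By length, the median over all genes was 0.26 up to 1000 bases and 0.13 over 1000 and up to 2500. Markers of choroid plexus, dopamine neurons and cerebellum were lower in TG intranasal than in TG drinking water, 6 of 6 in each list and none passing. Their median log2 fold changes were -1.15, -0.89 and -0.98. Their summed levels were 220 to 1863 CPM in TG intranasal and 1247 to 2070 CPM in TG drinking water for choroid plexus, 48.0 to 124 CPM in TG intranasal and 126 to 177 CPM in TG drinking water for dopamine neurons, and 109 to 162 CPM in TG intranasal and 136 to 187 CPM in TG drinking water for cerebellum. In contrast, 6 of 8 microglia markers and 6 of 8 neuron markers were higher in TG intranasal, with medians of 0.16 and 0.10. In each of the remaining marker lists more genes were lower than higher. The part of these cell types in the values of the 10 genes was not tested.

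The interaction, in which the log2 fold change of WT with nasal carnosine is taken from that of TG, was the only comparison in which any of the 10 genes passed. For Gpx4 the difference was 1.73 (SE 0.43, adjusted p = 0.0487), from 0.55 in TG and -1.18 in WT. For Prdx5 it was 1.03 (SE 0.26, adjusted p = 0.0487), from 0.26 in TG and -0.77 in WT. These 2 calls of 10 stand beside 2.32% of all genes called in either direction and 1.42% called in the positive direction. The other genes ran in the same direction except Cat, at -0.39 (SE 0.20), with Gpx1 at 1.13 (SE 0.39, adjusted p = 0.0795), Sod1 at 0.99 (SE 0.28, adjusted p = 0.0535), Prdx3 at 0.83, Prdx2 at 0.82, Prdx1 at 0.77, Prdx6 at 0.44 and Sod2 at 0.027. The median was 0.83 against -0.045 over all genes, of which 47.4% were positive, and 8 of the 10 had an unadjusted p under 0.05, against 28.6% of all genes. DESeq2 called 6, namely Sod1, Gpx1, Gpx4, Prdx1, Prdx2 and Prdx5, against 17.9% of the genes it tested. By length, the median over all genes was 1.13 up to 1000 bases and 0.41 over 1000 and up to 2500. The mean of Gpx4 was lower in TG control than in WT control, a difference that did not pass (adjusted p = 0.160). The same values thus also read as Gpx4 being 603 ± 193 CPM in TG control and 1184 ± 378 CPM in WT control (SD, n = 3 each) while it was 881 ± 259 CPM in TG intranasal and 524 ± 101 CPM in WT intranasal.

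Both calls were close to the threshold. Leaving out any 1 of 11 of the 15 libraries (WT control 1, WT intranasal 2 and 3, TG control 2 and 3, and each TG intranasal and TG drinking water library) left 0 of the 10 genes called, leaving out WT control 3 left 2, and leaving out WT control 2, WT intranasal 1 or TG control 1 gave 5. Of all genes tested, the fit without WT control 3 called 3.09%, and the fits without WT control 2, WT intranasal 1 and TG control 1 called 12.3%, 11.9% and 14.7%. The 11 fits with none of the 10 called had 0 to 19 calls over all genes, against 367 with every library. Over these 15 fits the difference for Gpx4 ran from 1.44 to 1.96, with adjusted p-values of 0.0205 to 0.141, and for Prdx5 from 0.83 to 1.17, with adjusted p-values of 0.0211 to 0.141. The TG drinking water libraries are in no group of the interaction, and without each of them Gpx4 stayed at 1.72. A term for the split of the libraries left none of the 10 called, and 0 of all genes, with Gpx4 at 1.67 (adjusted p = 0.296) and Prdx5 at 0.87 (adjusted p = 0.30). Every group but TG control stands wholly on 1 side of the split. The split term is therefore set by TG control 3 against TG control 1 and 2 alone, and is no full correction for the split. WT control 1 and TG control 1, the libraries with high Gh, were left out together in a fit added after the data were seen, and Gpx4 and Prdx5 were still called, both with an adjusted p of 0.0442, against 4.11% of all genes tested.

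Transcript length moved with these differences. Across 15081 genes with a length, which are not independent replicates, Spearman's rho between length and log2 fold change was 0.576 for TG control and 0.604 for WT intranasal, each against WT control, -0.489 for TG intranasal against TG control, -0.176 for TG drinking water against TG control, -0.376 for TG intranasal against TG drinking water and -0.630 for the interaction. All 10 genes but Sod2 have transcripts shorter than the median of 3158 bases: they run from 641 for Sod1 and 995 for Gpx4 to 2613 for Cat, against 5861 for Sod2. In TG control against WT control the median log2 fold change was -0.60 for the 759 genes of up to 1000 bases, -0.24 for the 4561 of over 1000 and up to 2500 and 0.15 for the 9761 longer ones. In WT intranasal against WT control these medians were -0.73, -0.26 and 0.17, and in the interaction they were 1.13, 0.41 and -0.28.

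**Figure D3:**
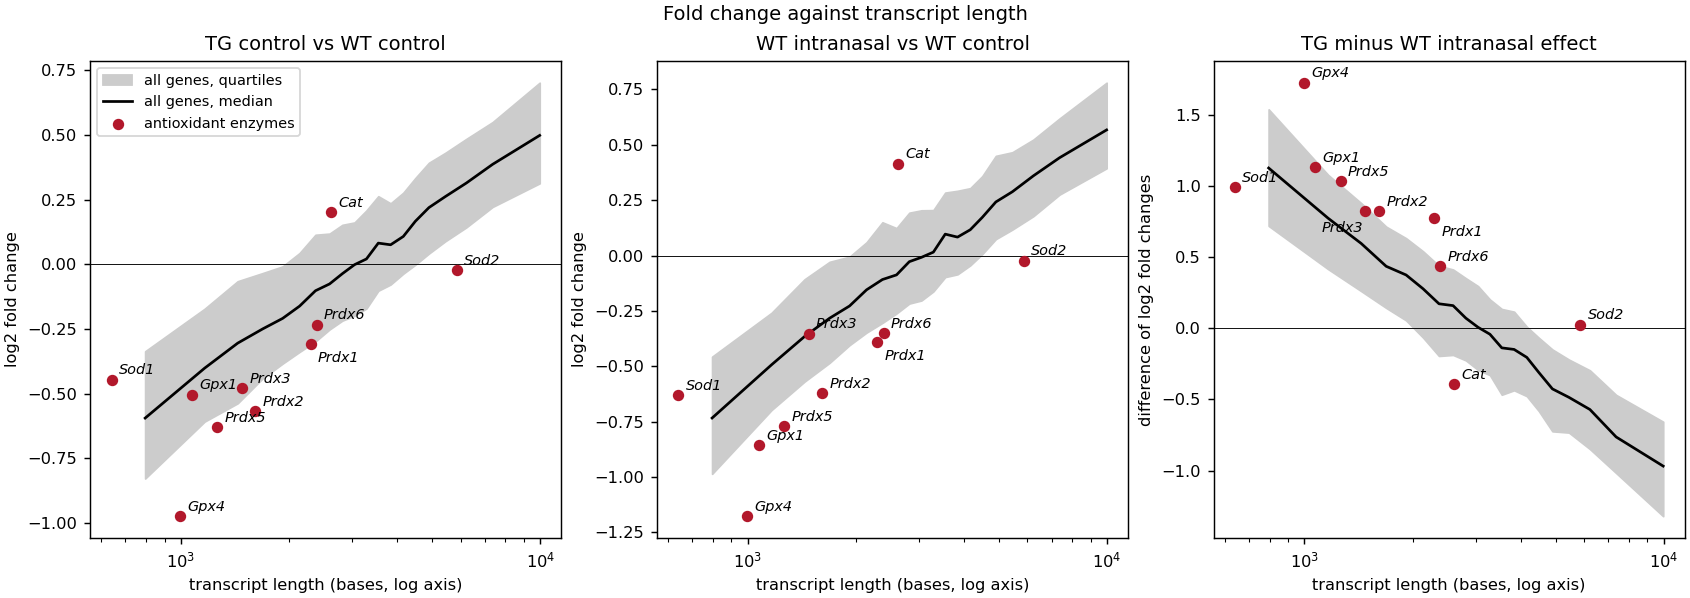
Log2 fold change (vertical axes) against transcript length in bases (log axis) for TG control and WT intranasal, each against WT control, and the TG minus WT effect of nasal carnosine. Lines and bands are the median and quartiles of 20 classes of genes by length, and points are the 10 antioxidant enzyme genes; Gpx4 and Cat lie outside the bands in all 3 panels, on opposite sides.

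Set beside their classes, of 20 near-equal classes of genes by length, some of the 10 genes lay outside the quartiles and others between them. Gpx4 was below the lower quartile of its class in TG control against WT control (-0.97 against a class median of -0.59) and in WT intranasal against WT control (-1.18 against -0.73), and above the upper quartile in the interaction (1.73 against 1.13). Sod2 and Cat also lay outside the quartiles of their classes in these 3 comparisons. Sod2, whose own value was near 0, lay below genes of its length, which had a median of 0.31 in TG control against WT control. Sod1, in contrast, lay between the quartiles of its class in every comparison. Of the 10 genes, 5 were below the lower quartile of their class in TG control against WT control, and 7 in WT intranasal against WT control. These positions are a description, with no test.

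A loess correction of each library for transcript length and GC content, followed by the same test, moved 7 of the 10 genes nearer to 0 in TG control and 8 in WT intranasal, each against WT control, and 9 in the interaction. The medians after correction were -0.29, -0.37 and 0.47, and none of the 10 genes passed in any comparison. Gpx4 kept its sign, at -0.48 (SE 0.19) in TG control and -0.63 (SE 0.19, adjusted p = 0.0995) in WT intranasal, each against WT control, and 1.01 (SE 0.27, adjusted p = 0.0649) in the interaction. Prdx5 was at 0.48 (SE 0.15, adjusted p = 0.102) in the interaction. Sod1 changed sign, to 0.11 (SE 0.10) in TG control and 0.047 (SE 0.10) in WT intranasal, each against WT control, and its interaction was 0.030. Sod2 moved away from 0, to -0.34 (SE 0.12) and -0.38 (SE 0.12) in those comparisons, and Cat stayed at 0.16 and 0.35. Prdx1 and Prdx6, with longer transcripts than most of the 10, moved by little, to -0.32 and -0.26 in TG control and to -0.39 and -0.39 in WT intranasal.

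**Figure D4:**
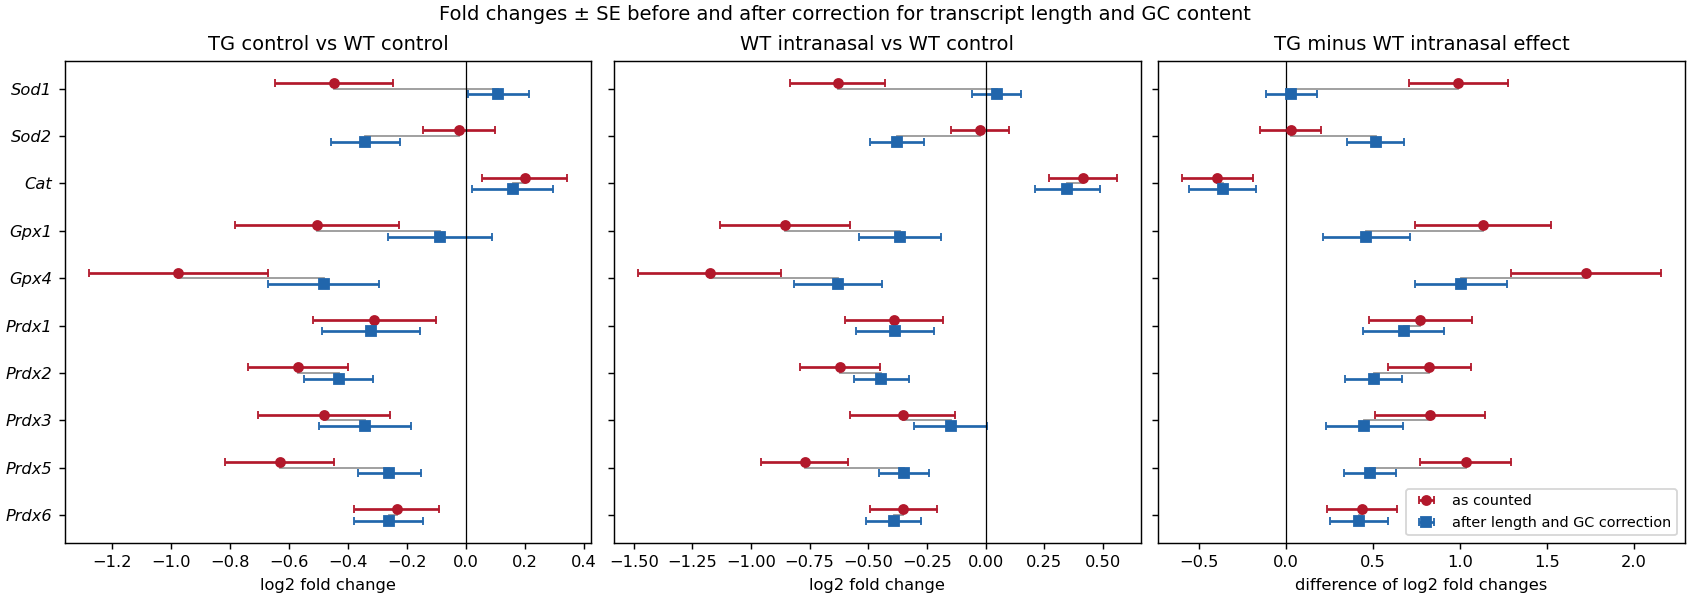
Log2 fold changes of the 10 genes with SE (horizontal axes) as counted (circles) and after correction for transcript length and GC content (squares), for TG control and WT intranasal, each against WT control, and the TG minus WT effect of nasal carnosine. Sod1 is at -0.45 before and 0.11 after correction in the first panel, and Gpx4 stays farthest from 0 in each panel.

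The libraries themselves differed along the same line. For each library, the level of every gene relative to its own mean over the 15 libraries was set against transcript length. The rho across genes was highest in TG control 2 (0.639), WT intranasal 2 (0.538) and WT intranasal 3 (0.536), and those were the 3 libraries in which the median of the 10 genes was lowest, at -0.62, -0.33 and -0.37 on the centred log2 scale. It was lowest in WT control 1 (-0.570), where the median of the 10 was highest at 0.53. TG control 2 and WT intranasal 2 and 3 also held the highest sums of 8 astrocyte markers, 10534, 7798 and 8573 CPM, against 4249 to 6411 CPM in the other 12 libraries. They held the lowest sums of 8 oligodendrocyte markers but for WT control 2, which lay between them: 14484, 14115 and 15296 CPM, against 15160 CPM in WT control 2 and 16786 to 31081 CPM in the rest. By group, the astrocyte sums ran from 5125 to 5876 CPM in TG intranasal, 4792 to 5334 in TG drinking water, 5756 to 10534 in TG control, 5777 to 8573 in WT intranasal and 4249 to 6411 in WT control. Of the 8 astrocyte markers 1 passed, lower, in the interaction, none passed elsewhere, and none of the oligodendrocyte markers passed. The part of length, and that of the cell types named by these markers, in the differences of the 10 genes was not tested.

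**Figure D5:**
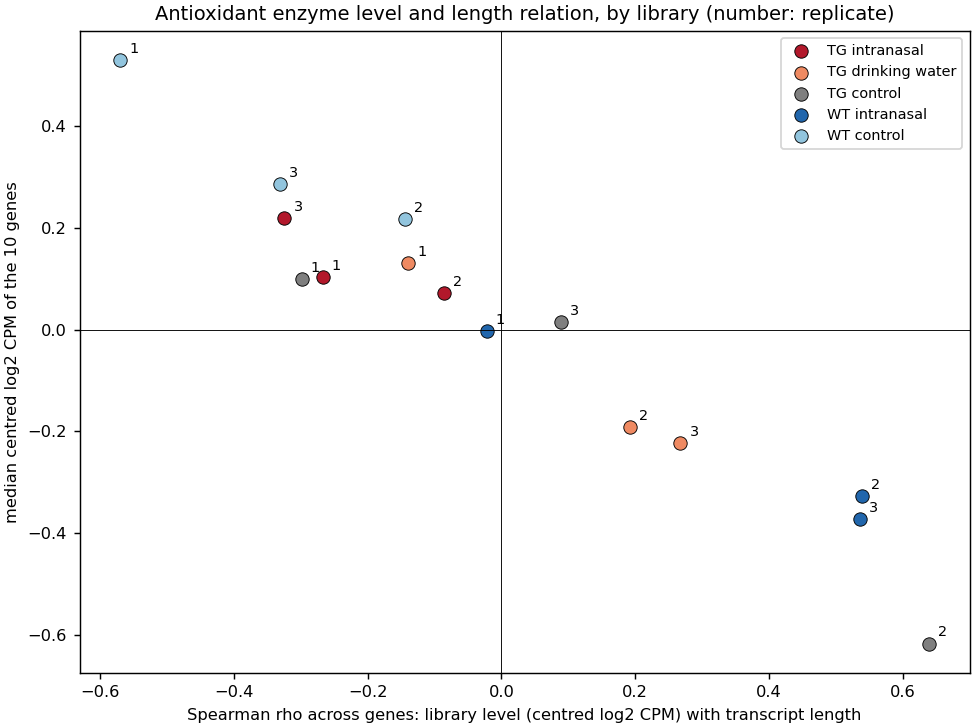
Median level of the 10 genes in each library (vertical axis, log2 CPM centred on each gene's mean over 15 libraries) against Spearman's rho across 15081 genes between the library's centred level and transcript length (horizontal axis). Points are libraries, coloured by group and numbered by replicate; TG control 2 lies at 0.639 and -0.62, and WT control 1 at -0.570 and 0.53.

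How alike the 10 genes were across libraries was measured as the root-mean-square difference of their centred log2 CPM over the 15 libraries. The nearest pairs were Prdx2 with Prdx5, at 0.10, and Sod1 with Prdx1, at 0.11. Cat was the farthest for 7 of the other genes, at 0.69 from Gpx4, and was nearest to Sod2, at 0.20. The closest gene outside the 10 was Stoml2 for Sod1 (0.078), Sar1a for Sod2 (0.073), Ddx42 for Cat (0.10), Rpl15 for Gpx1 (0.098), Ndufb8 for Gpx4 (0.086), Cyb5a for Prdx1 (0.084), Tpi1 for Prdx2 (0.068), Emc6 for Prdx3 (0.12), Ube2s for Prdx5 (0.068) and Rab5c for Prdx6 (0.092). Each of these outside genes was closer to its gene than any of the other 9 was. Each was picked as the nearest of far more genes, so this does not show how alike the 10 are.

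The genes that work beside these enzymes showed few changes that passed. The thioredoxin and glutaredoxin system reduces peroxiredoxins and protein disulfides, and 11 of its 11 listed genes were lower in TG control than in WT control (median log2 fold change -0.51), none passing. In WT intranasal against WT control 10 of the 11 were lower, with a median of -0.56. Of the 11, 1 passed, against 1.01% of all genes: Glrx5, a mitochondrial glutaredoxin of iron-sulfur cluster assembly. It had 82.3, 63.7 and 59.6 CPM in WT intranasal, against 231, 107 and 135 CPM in WT control, and fell by 1.20 on the log2 scale (SE 0.25, adjusted p = 0.0467). It was also called in the interaction, at 1.69 (SE 0.36, adjusted p = 0.0487), against 2.32% of all genes. Both calls of Glrx5 were close to the threshold. The call in WT intranasal against WT control was lost with upper-quartile scaling, with the split term and without WT control 1. Each of these fits called 0 of all genes there. Glrx5 had 81.4, 45.9 and 70.8 CPM in TG control, for a log2 fold change against WT control of -1.26 (SE 0.26, adjusted p = 0.125). In TG intranasal against TG control 11 of the 11 genes were higher, with a median of 0.33 and none passing. Txn2, the mitochondrial thioredoxin that serves Prdx3, had 164, 124 and 194 CPM in TG control and 273, 241 and 217 CPM in WT control, with a log2 fold change of -0.60 (SE 0.18, adjusted p = 0.148).

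Of the other enzymes that remove superoxide and peroxide, 6 of 7 were tested, and none passed in any comparison. In TG control against WT control 5 of the 6 were lower, with a median of -0.54, among them the extracellular Gpx3 at -0.97 (SE 0.31, adjusted p = 0.161) and Prdx4, the peroxiredoxin of the endoplasmic reticulum, at -0.61 (SE 0.22, adjusted p = 0.197). Ccs, which loads copper into Sod1, had 22.3, 19.1 and 20.4 CPM in WT intranasal and 36.5, 30.0 and 26.8 CPM in WT control, without overlap, and a log2 fold change of -0.59 (SE 0.21, adjusted p = 0.116).

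Glutathione genes were near evenly divided. Of the 7 genes of glutathione synthesis and recycling, 3 were lower in TG control than in WT control and 2 in WT intranasal than in WT control, with medians of 0.017 and 0.10, and none passed in any comparison. Slc7a11, the cystine importer that feeds glutathione synthesis and so the work of Gpx4, ran against Gpx4. It had 30.8, 74.3 and 75.2 CPM in WT intranasal and 17.2, 38.3 and 26.4 CPM in WT control, for a log2 fold change of 1.14 (SE 0.35, adjusted p = 0.0830). In TG control it had 35.9, 81.5 and 39.4 CPM, for a log2 fold change against WT control of 0.93 (SE 0.35, adjusted p = 0.199). The interaction was -1.85 (SE 0.49, adjusted p = 0.0504). Its highest libraries were TG control 2, WT intranasal 3 and WT intranasal 2, the same 3 that held the highest astrocyte sums.

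None of the 8 genes of NADPH supply, the 8 of selenoprotein synthesis, on which Gpx1 and Gpx4 depend, or the 10 tested of 14 oxidant sources passed in any comparison. In TG control against WT control, 7 of the 8 NADPH genes were lower, with a median of -0.16, and 5 of the 8 selenoprotein genes, with a median of -0.11, while 7 of the 10 oxidant sources were higher, with a median of 0.16. In WT intranasal against WT control the numbers were 6 of 8 lower, 6 of 8 lower and 8 of 10 higher, with medians of -0.13, -0.12 and 0.14. In TG intranasal against TG control the 3 medians were 0.023, 0.11 and -0.030. The smallest p-values of these lists in TG control against WT control belonged to Tkt and Taldo1, enzymes of the pentose phosphate pathway, with log2 fold changes of -0.26 and -0.27, to Trnau1ap, which binds the selenocysteine tRNA, at -0.51, to Lrp8, a receptor for selenoprotein P, at 0.37, to Ncf1, a subunit of the phagocyte NADPH oxidase, at 0.56, and to Aox1, an aldehyde oxidase, at 0.45. In WT intranasal against WT control they belonged to Nnt, the mitochondrial transhydrogenase, at 0.31, to Taldo1 at -0.30, to Pstk, a kinase of selenocysteine synthesis, at -0.78, to Lrp8 at 0.48, to Aox1 at 0.50 and to Cyba, another oxidase subunit, at -0.52.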

How the data were processed

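The authors deposited a table of whole-number counts per gene and library, with no normalization. Its aligner, counter, genome build, annotation and strand use were not given in the sources used here. Columns were matched to libraries by the descriptions in the labels. A RefSeq gene table named 24374 of 24454 rows, and the other 80, which carry gene numbers only, stayed in the fit and were left out in an alternative. Transcript length and GC content came from the GENCODE annotation of GRCm38 (longest basic transcript).

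Counts were tested in R 4.3.3 with edgeR 4.0.16: filterByExpr, TMM scaling and a quasi-likelihood fit of 5 group means to all 15 libraries (common biological coefficient of variation 0.244). CPM were computed on TMM-scaled library totals, log2 CPM used a prior count of 2, and SEs are the log2 fold change over the root of F. Every gene of the list is described in every comparison; for each, the gene outside it with the nearest pattern is named, predicted genes left out. Of related lists, genes called, or otherwise those 2 with the smallest p, were chosen for naming, and most are given for TG control and WT intranasal, each against WT control. The genes and lists were chosen with earlier results of these data known. Slc7a11, Glrx5 and Txn2 in comparisons other than their own, and Gh and Gabra6, were named after their values were seen. The procedure was tested on simulated counts. Alternatives were RLE and upper-quartile scaling, DESeq2 1.42.0, no filter, a filter of 5 CPM in 3 libraries, only the compared groups, a replicate block, a split term, leaving out split rows, a loess offset on length and GC (span 0.3, values for 95.3% of tested genes), within-split fits and leaving out each library; within the split, the lone TG control 3 is assumed to vary like other libraries.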

Additional observations from a re-analysis of the deposited data

Results flagged for a closer look

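Both results below were picked out because the effect of intranasal carnosine differed between TG and WT by a test of the difference itself. For Gpx4 the change in TG minus that in WT, on the log2 scale, was 1.73 (SE 0.43, edgeR adjusted p = 0.0487), with 2 of 3 TG intranasal libraries above every TG control library and 3 of 3 WT intranasal libraries below every WT control library. For Prdx5 the difference was 1.03 (SE 0.26, edgeR adjusted p = 0.0487), with 2 of 3 TG intranasal libraries above every TG control library and 3 of 3 WT intranasal libraries below every WT control library. With length and GC content of transcripts corrected for, these differences were 1.01 (adjusted p = 0.0649) and 0.48 (adjusted p = 0.102). The median difference was 1.13 in the length class of Gpx4 and 0.77 in that of Prdx5.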

How the results depend on the processing

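In TG control against WT control, 0 of the 10 genes were called, and 3 with the replicate block and 3 with DESeq2. In WT intranasal against WT control 0 were called, and 2 with no filter, 1 with a filter of 5 CPM in 3 libraries, 5 with the replicate block, 5 with DESeq2 and 0 to 5 with 1 library left out. In the interaction 2 were called, and 4 with the 5 CPM filter, 7 with the replicate block, 6 with DESeq2, and 0 each with only the compared groups, with the split term, without the rows that mark the split and with the length and GC correction; leaving out 1 library gave 0 to 5. The cause of these differences was not tested, beyond the fewer libraries where some were left out. Libraries outside the compared groups enter only through the shared filter, scaling and spread. In the other 3 comparisons 0 were called under each alternative. Neither Gpx4 nor Prdx5 changed sign in the interaction under any alternative. Sod1, which DESeq2 called lower in WT intranasal against WT control, was at 0.047 in that comparison with the length and GC correction. Over all genes the calls ranged from 0 to 531 in TG control against WT control, 0 to 1587 in WT intranasal against WT control and 0 to 2598 in the interaction, against 2, 159 and 367, and from 0 to 91, 0 to 196 and 0 to 24 in the other comparisons, against 1, 1 and 0. The calls of 531, 1587 and 2598 were those of the replicate block, of 15818 genes tested. In WT intranasal against WT control, no filter called 534 of 19878 genes and the 5 CPM filter 197 of 12097. In the interaction the 5 CPM filter called 1253 of 12097. There only the compared groups gave 0 calls over all genes and the split term 0. Leaving out the split rows gave 307 and the length and GC correction 15. Same-numbered libraries deviated together in 12 of 30 pairs (correlation over 0.1), and the own number correlated best in 27 of 60 cases. These values do not settle whether the numbers pair the libraries. The labels do not say that they do, and the main fit took no pairing. With 3 libraries a group and SEs of 0.12 to 0.30 on the log2 scale in the comparisons of groups, small differences could not be shown. Counts of 651 or more per library make counting error small beside the spread between libraries.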
